A study of Mus musculus with 6 samples.

Results

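The genes for the eukaryotic translation initiation factors (eIFs) were followed in RAW264.7 cells, a mouse macrophage-like line that grew from a tumour induced by Abelson leukaemia virus. They were taken from the deposited count table as the protein-coding genes with mouse symbols beginning Eif1 to Eif6. The eIF2 kinase genes (Eif2ak) and pseudogenes were left out. This gave 49 genes of the 24379 listed, and all 49 passed the filter on low counts. By their labels, 3 libraries came from cells given high-fructose corn syrup (HFCS), a sweetener that mixes fructose with glucose. The 3 libraries labelled WT, here the control, came from the same line. Every library carries a time of 18 h. The dose of HFCS is 140 mM in the titles while the source names have 170 mM, which leaves it uncertain. The sources used here do not say what the control cells received or whether it balanced the osmotic load. Nothing in the labels says that replicates were separate cultures, so the spread behind each p-value is that of the libraries and may be technical.

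Initiation begins when eIF2 carries the initiator tRNA to the small ribosomal subunit, helped by eIF1, eIF1A, eIF3 and eIF5. The eIF4F complex, made of the cap-binding protein eIF4E, the scaffold eIF4G and the helicase eIF4A, brings the mRNA, and the loaded subunit then scans to a start codon. eIF2B recharges eIF2 with GTP, and eIF4E-binding proteins compete with eIF4G for eIF4E. In macrophages, control of these steps is known to shape how fast inflammatory proteins are made.

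Total counts were 13108485 to 15340255 per library. Of 8 macrophage marker genes 6 were higher and 2 lower, Csf1r (-0.67) and Cd68 (-0.42), with a summed level of 2194 to 2243 counts per 1e6 counts (CPM) in HFCS-labelled libraries and 1791 to 1873 CPM in control-labelled ones. Markers of fibroblasts, epithelium, lymphocytes and endothelium summed to 2.14 to 2.74 CPM in HFCS-labelled libraries and 4.06 to 5.67 CPM in control-labelled ones over the 9 of 14 that were listed. Only 3 of these passed the filter on low counts. Pecam1 (endothelium) was lower, with 35 counts in all HFCS-labelled libraries and 121 in the control-labelled ones (log2 fold change -1.86). Cdh5 (endothelium) was lower too, with 25 and 62 counts (-1.37), and Col1a1 (fibroblasts) did not pass the test. Dcn and Pdgfra (fibroblasts) had 2 counts each, all in HFCS-labelled libraries, and Krt8 (epithelium) had 5, all in control-labelled ones. Whether any of these marker differences bears on the initiation factor genes was not tested. Akr1b3, Slc5a3, Slc6a12 and Hspa4l, known as genes that hypertonic medium induces, were all lower in the HFCS-labelled libraries, Akr1b3 with a log2 fold change of -5.16. That is the reverse of the direction that an unbalanced osmotic load from HFCS would give. Whether the labels were exchanged was not tested. The libraries are therefore named by their labels, and every direction rests on those labels. On the second principal component (11.8% of the variance), control replicate 1 (29.3) lay apart from control replicates 2 (-14.2) and 3 (-13.4). HFCS replicate 3 (-18.9) also lay apart from HFCS replicates 1 (8.89) and 2 (8.23), on the side of control replicates 2 and 3. What this component reflects was not tested.

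As a whole the initiation factor genes shifted little and in both directions. Of the 49, 9 rose and 13 fell with the HFCS label at an adjusted p under 0.05 (edgeR's quasi-likelihood test, Benjamini-Hochberg adjustment over all genes), which is 44.9% of them. Over all 14360 tested genes the same test called 44.9%, 22.4% higher and 22.5% lower, so the number of called members did not stand out from the background. None of the 49 changed by more than 2-fold, a size that 11.7% of all tested genes passed. The median log2 fold change was -0.05 over the members and -0.0045 over all tested genes, and the median size of the change was 0.22 and 0.33. These comparisons with all tested genes were not matched for expression level. The groups did not overlap for 32 members, against 54.5% of all genes. The members together held 1.22, 1.22 and 1.23% of the counts in HFCS-labelled libraries and 1.15, 1.17 and 1.19% in control-labelled ones. After TMM scaling the sums overlapped, at 11837 to 11971 CPM in HFCS-labelled libraries and 11901 to 12201 CPM in control-labelled ones. In bulk RNA such values are relative, and a change in RNA per cell cannot be told apart from a change in the share of a message. The higher genes included Eif1, Eif5, Eif6 and Eif4g2, and the lower ones included 6 eIF3 subunits, Eif4e and Eif4b. The count of higher members was 5 without HFCS replicate 1, HFCS replicate 2, control replicate 2 or control replicate 3, each left out in turn, and 12 without control replicate 1. Scaling by library size alone gave 16 higher and 10 lower members and a median over all genes of 0.08.

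**Figure D1:**
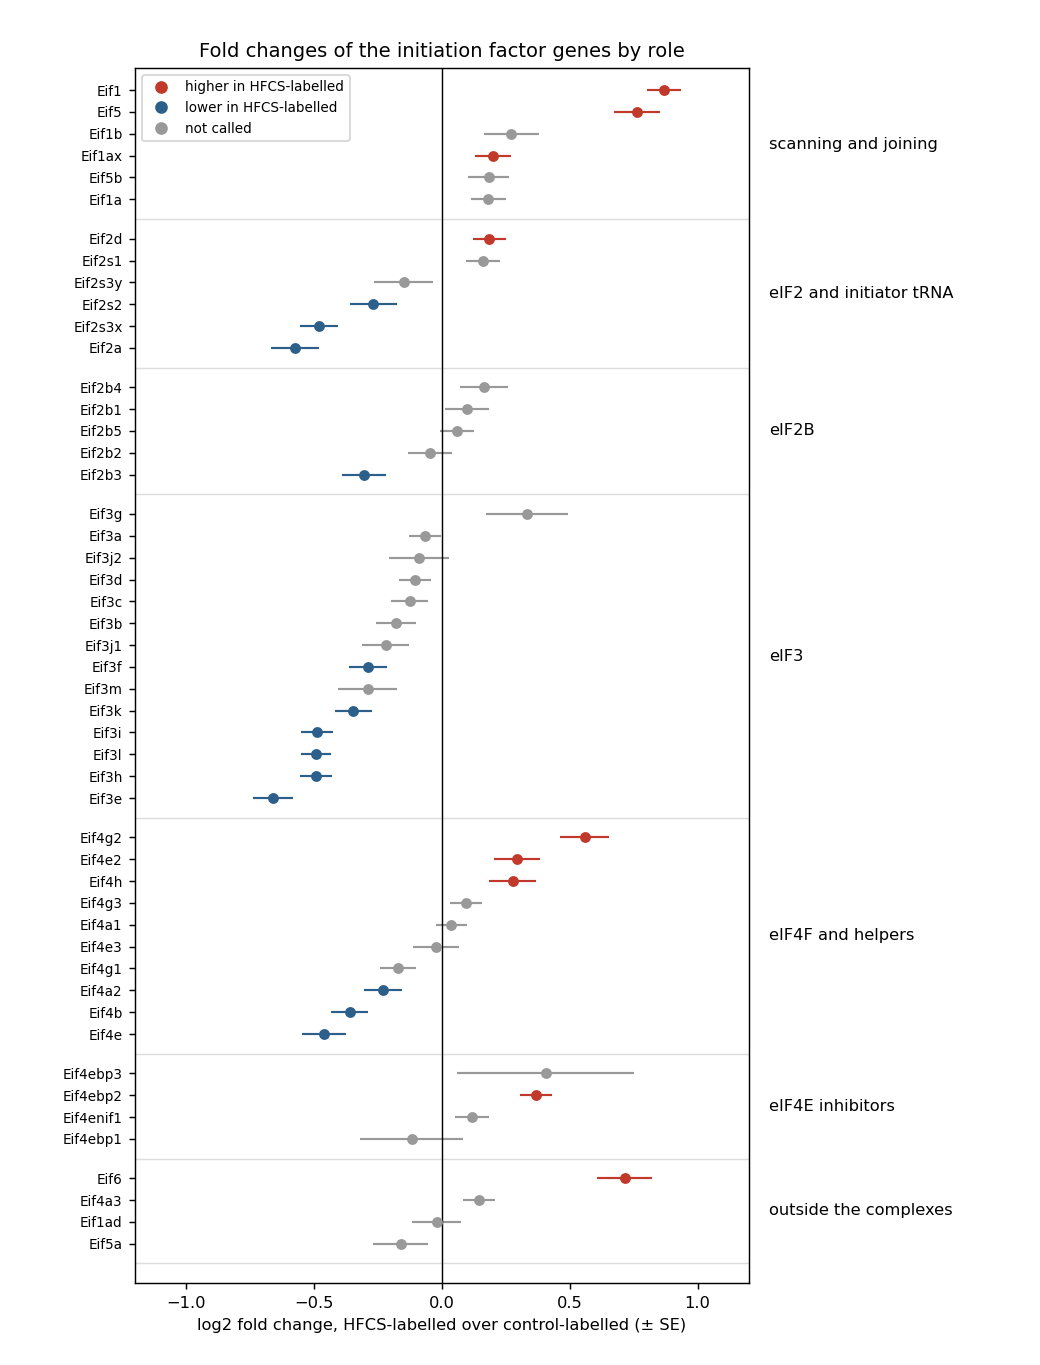
Log2 fold changes, HFCS-labelled over control-labelled libraries, of the 49 initiation factor genes, grouped by role (points, edgeR estimates; bars, SE; n = 3 libraries each). Red points passed the test as higher, blue as lower, and grey did not pass; Eif1 lies furthest right at 0.87 and Eif3e furthest left at -0.66.

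Genes for the factors that hold the scanning subunit open and then join the large subunit were all at the higher level in the HFCS-labelled libraries. All 6 had groups that did not overlap, where 27.4% of all genes had every HFCS-labelled library above every control-labelled one. The test called 3 of the 6 higher, against 22.4% of all genes. The median log2 fold change of the 6 was 0.24. The strongest were Eif1, whose protein keeps the scanning subunit from stopping at poor start codons, and Eif5, the GTPase activator that makes eIF2 let go once the start codon is found. Eif1 (ENSMUSG00000035530, mm10 chromosome 11, 100319885 to 100322096, plus strand) had 537, 543 and 564 CPM in HFCS-labelled libraries and 281, 305 and 314 CPM in control-labelled ones. Its lowest HFCS-labelled value lay well above its highest control-labelled one, and the log2 fold change was 0.87 ± 0.07 (SE), 1.83-fold, with an adjusted p of 4.6e-06. Eif5 (ENSMUSG00000021282, chromosome 12, 111538016 to 111546752, plus strand) had 394, 385 and 449 CPM in HFCS-labelled libraries against 213, 254 and 258 CPM in control-labelled ones. The groups were again apart, with a log2 fold change of 0.76 ± 0.09, 1.69-fold (adjusted p = 8.4e-05). Both genes passed in each of the 14 alternative settings.

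The other 4 differed by less. Eif1ax, one of 2 genes for eIF1A, the partner of eIF1 in scanning, had 113, 119 and 106 CPM in HFCS-labelled libraries and 101, 98.3 and 94.5 CPM in control-labelled ones (log2 fold change 0.20 ± 0.07, adjusted p = 0.039). Its call was lost without HFCS replicate 1 or 2, or control replicate 2 or 3, with adjusted p-values of 0.0766 to 0.150, in DESeq2 (0.0657) and with upper-quartile scaling (0.0760). Eif1a, the other eIF1A gene, was at 0.18 ± 0.07 (adjusted p = 0.0533), and as near copies the eIF1A genes could share reads. Eif5b, the GTPase that joins the subunits, was at 0.18 ± 0.08 (adjusted p = 0.0846) and Eif1b, a close relative of Eif1, at 0.27 ± 0.11 (adjusted p = 0.0627). These 3 did not pass, though Eif1b did without control replicate 1 (0.38, adjusted p = 0.00348), and all 3 did without a filter on low counts, with library size alone and when the replicate number entered as a block. Per length, Eif1 was the most abundant of the 6, at 852 ± 51.2 TPM in HFCS-labelled libraries and 453 ± 41.3 TPM in control-labelled ones (mean ± SD, n = 3 each), while Eif1b had 111 ± 3.51 TPM in HFCS-labelled libraries and 88.9 ± 8.90 TPM in control-labelled ones. TPM, a length-corrected level with the same total in every library, was computed here from the summed exon length of each gene in GENCODE M21. That length takes in the exons of all annotated transcripts and can exceed that of the message made. Comparisons of TPM between genes are therefore approximate.

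**Figure D2:**
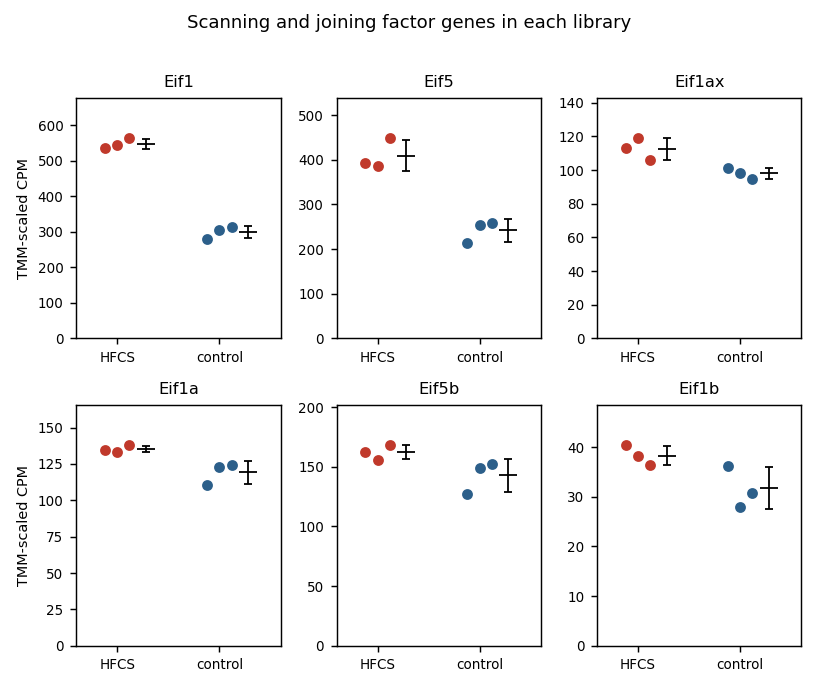
TMM-scaled CPM of the 6 scanning and joining factor genes in each library (points), with mean ± SD (bars, n = 3 each), HFCS-labelled in red on the left and control-labelled in blue on the right, on axes that start at 0. In each panel the lowest HFCS-labelled library lies above the highest control-labelled one, by the widest margin for Eif1 (537 against 314 CPM).

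Genes of eIF2 and the other initiator tRNA factors were called in both directions, with 1 of 6 higher and 3 lower, against 22.4% and 22.5% of all genes. Their median log2 fold change was -0.21. Eif2s1 codes for the alpha subunit, whose phosphorylation is the known switch of the integrated stress response, Eif2s2 for the beta subunit, and Eif2s3x and Eif2s3y for X- and Y-linked forms of the gamma subunit, which binds GTP and the initiator tRNA. Eif2s1 had 217, 209 and 224 CPM in HFCS-labelled libraries against 181, 201 and 199.6 CPM in control-labelled ones. The groups did not overlap, but the difference did not pass (0.16 ± 0.07, adjusted p = 0.0745) except with library size alone. Eif2s3x had 137, 136 and 137 CPM in HFCS-labelled libraries and 173, 208 and 191 CPM in control-labelled ones. It fell in every alternative as well (-0.48 ± 0.08, adjusted p = 4.7e-04), and the groups were clearly apart. Eif2s2 fell by 0.27 ± 0.09 (adjusted p = 0.0338) with overlapping groups, and its call was lost without HFCS replicate 1 or 2, or control replicate 2 or 3 (adjusted p = 0.117 to 0.141), and with library size alone (0.117). Eif2s3y, at 36.5 ± 3.82 CPM in HFCS-labelled libraries and 40.6 ± 5.03 CPM in control-labelled ones, did not pass (-0.15 ± 0.11, adjusted p = 0.314). The X- and Y-linked genes are near copies, so reads could be split between them.

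Another pair of genes acts on the initiator tRNA outside eIF2, and they went opposite ways. Eif2a, for a factor used in some stress and non-AUG initiation, had 64.2, 65.3 and 70.1 CPM in HFCS-labelled libraries against 87.0, 112 and 99.0 CPM in control-labelled ones (-0.58 ± 0.09, adjusted p = 6.2e-04). Its exons overlap those of Serp1 on the other strand, which had 18025 counts in HFCS-labelled libraries and 7726 in control-labelled ones, and the strand setting of the counting is not given, so the value for Eif2a is uncertain. Eif2d, whose protein is known for recycling and reinitiation, had 212, 211 and 203 CPM in HFCS-labelled libraries against 191, 176 and 184 CPM in control-labelled ones (0.19 ± 0.06, adjusted p = 0.0332). Exons of Eif2d overlap those of Rassf5 on the other strand, which had 2652 counts in HFCS-labelled libraries and 2502 in control-labelled ones. The call of Eif2d was lost without HFCS replicate 1 or 2, or control replicate 2 or 3 (adjusted p = 0.0851 to 0.101), in DESeq2 (0.0524) and with upper-quartile scaling (0.0696). Of the 5 genes for eIF2B, the exchange factor of eIF2, only Eif2b3, a subunit of its catalytic part, passed, where 22.5% of all genes were called lower. It had 37.9, 36.2 and 36.5 CPM in HFCS-labelled libraries and 41.5, 46.7 and 48.3 CPM in control-labelled ones (-0.30 ± 0.09, adjusted p = 0.0156). Its call was lost without any 1 of the HFCS-labelled libraries or control replicate 3 (adjusted p = 0.0506 to 0.0709), and with library size alone (0.0572). Eif2b5, the main catalytic subunit, had 78.0, 77.8 and 78.4 CPM in HFCS-labelled libraries against 76.5, 73.0 and 75.5 CPM in control-labelled ones and did not pass (0.06 ± 0.07, adjusted p = 0.503). Eif2b1, Eif2b2 and Eif2b4 lay between -0.05 and 0.17 on the log2 scale.

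eIF3 is the largest of the factors, a scaffold that binds the small subunit and links it to the mRNA. Of its 14 subunit genes, 6 were lower, none was higher and 8 did not pass. The median log2 fold change was -0.25, and 22.5% of all tested genes were called lower. In 9 of the 14 every HFCS-labelled library was below every control-labelled one, against 27.2% of all genes. The 6 were Eif3e, Eif3h, Eif3l, Eif3i, Eif3k and Eif3f. Of these, 5 code for members of the octamer that forms the body of eIF3 (subunits a, c, e, f, h, k, l and m), in which all 8 genes had a negative log2 fold change, and 5 of 8 passed. Eif3i belongs to the separate module of subunits b, g and i, and it was the only one of the 6 genes outside the octamer that passed. No test of the octamer against the other subunits was made, since it was set apart with the values known.

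Eif3e (ENSMUSG00000022336, chromosome 15, 43250058 to 43282719, minus strand) had 210.1, 221 and 223 CPM in HFCS-labelled libraries against 309, 366 and 360.3 CPM in control-labelled ones. No value of one group came near the other, and the log2 fold change was -0.66 ± 0.08 (adjusted p = 7.6e-05), the most negative of the 49. Eif3h (chromosome 15, 51786558 to 51865523, minus strand) had 281, 303 and 281 CPM in HFCS-labelled libraries and 412, 403 and 402 CPM in control-labelled ones (-0.49 ± 0.06, adjusted p = 1.3e-04). Eif3l, whose product pairs with that of Eif3k at the edge of the octamer, had 208, 207 and 199 CPM in HFCS-labelled libraries against 290.5, 283 and 290.0 CPM in control-labelled ones (-0.49 ± 0.06, adjusted p = 9.5e-05). The spread within each group was small beside these differences. Eif3i had 200.3, 192 and 196 CPM in HFCS-labelled libraries and 268, 289.9 and 267 CPM in control-labelled ones (-0.49 ± 0.06, adjusted p = 1.4e-04). For Eif3k the values were 160.3, 151 and 137 CPM in HFCS-labelled libraries and 197, 188 and 185 CPM in control-labelled ones (-0.35 ± 0.07, adjusted p = 0.0029). Those of Eif3f were 400.2, 437 and 403 CPM in HFCS-labelled libraries and 549, 483 and 482 CPM in control-labelled ones (-0.29 ± 0.07, adjusted p = 0.0085). In all 6 genes the groups stayed apart, though Eif3f did not pass without HFCS replicate 1 (adjusted p = 0.0568).

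The other 8 did not pass in edgeR with TMM scaling and all libraries. Eif3a, the backbone of the complex, had 726, 716 and 711 CPM in HFCS-labelled libraries and 742, 722 and 790.5 CPM in control-labelled ones (-0.07 ± 0.06, adjusted p = 0.409). Eif3c was at -0.13 ± 0.07 (adjusted p = 0.176), Eif3b at -0.18 ± 0.08 (0.0786) and Eif3d, whose protein can itself bind a cap, at -0.11 ± 0.06 (0.192). Eif3g was the only subunit gene with a positive estimate, at 164, 160.4 and 133 CPM in HFCS-labelled libraries and 159, 94.8 and 109 CPM in control-labelled ones. Control replicate 1 reached the level of the HFCS-labelled libraries there. With it the difference did not pass (0.33 ± 0.16, adjusted p = 0.118), and without it the log2 fold change was 0.58 (adjusted p = 8.7e-05). Without the same library 3 more subunit genes passed as lower, Eif3m (-0.40, adjusted p = 8.9e-04), Eif3c (-0.18, 0.0128) and Eif3j1 (-0.27, 0.0204), and Eif3m also did without HFCS replicate 3 (-0.39, 0.0235). Eif3j1 and Eif3j2 are closely related copies between which reads could be split, and Eif3j1 did pass with upper-quartile scaling (-0.25, 0.0461). With all libraries in, Eif3m passed as lower in DESeq2 (0.0327), with upper-quartile scaling (0.0391) and with the replicate block (0.00266). Eif3b passed as lower with upper-quartile scaling (0.0439) and the block (0.0486), and Eif3g as higher with no filter on low counts (0.0272) and the block (0.00541). In TPM the levels of the 14 ran from 16.7 for Eif3j1 to 582 for Eif3h in the HFCS-labelled libraries. In the control-labelled ones they ran from 19.0 for Eif3j1 to 796 for Eif3h. The exon lengths behind these levels differ, at 5830 bases for Eif3j1 and 1612 for Eif3h. How unequal the messages themselves were is therefore uncertain. The summed CPM of the 14 was 3289 to 3325 in HFCS-labelled libraries and 3923 to 3999.6 in control-labelled ones.

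**Figure D3:**
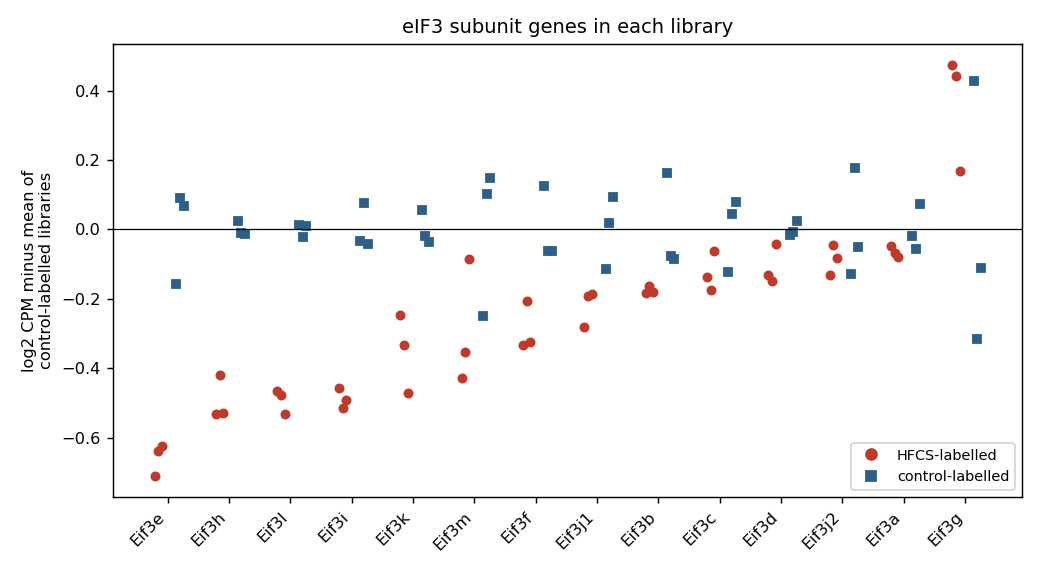
Log2 CPM of the 14 eIF3 subunit genes in each library, minus the mean of the control-labelled libraries (HFCS-labelled, red circles, left of each name; control-labelled, blue squares, right), ordered by fold change. The HFCS-labelled libraries lie wholly below for 9 subunits, while for Eif3g control replicate 1 lies among the HFCS-labelled libraries.

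Several initiation factor mRNAs of mammals, among them those of Eif3e, Eif3f, Eif3h and Eif4b, are known to begin with a terminal oligopyrimidine tract, a run of C and T letters through which growth signals control their translation. The letters around the annotated start were therefore read from RefSeq (GRCm38.p6), 15 bases on each side of the start furthest upstream, for the 38 members with an entry. A run of at least 7 C or T letters, a length chosen after the values were seen, was present in 9 of the 38 and in 18.4% of the 27025 genes with an entry. Of these 9, 4 were lower, none was higher and 5 did not pass. Of the other 29, 5 were lower and 7 higher. Those 5 lower ones were Eif2a, Eif2s2, Eif3k, Eif4a2 and Eif4e, with runs of 2 to 4 letters. Over all tested genes 22.5% were lower and 22.4% higher. Because the length was chosen with the calls known, this split cannot test whether runs go with lower calls. The 4 lower members with a run of at least 7 are shown first and the 2 genes with the highest fold changes after them. Sequences run 5′ to 3′ on the gene's strand, with the longest run in capitals:
Eif2s3x, chrX:94212637-94212666, minus strand: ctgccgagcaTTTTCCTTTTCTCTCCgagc
Eif3f, chr7:108934400-108934429, plus strand: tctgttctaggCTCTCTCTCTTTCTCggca
Eif3l, chr15:79075208-79075237, plus strand: gcgcggagTTCTTCTTCCgctctctcccac
Eif4b, chr15:102073758-102073787, plus strand: ggTCTTCCCgtcggacgccgcgccaccccc
Eif1, chr11:100319934-100319963, plus strand: gcgCTggcgtcacaggggcggctatataag
Eif5, chr12:111538086-111538115, plus strand: gagaTCgacgtgcatgcgagccaatgacaa
The runs of Eif2s3x (16 letters), Eif3f (15) and Eif3l (10) span the annotated start, and that of Eif4b ends before it. Eif1 and Eif5 have no run longer than 2 letters in the window. The longest run, of 19 letters, was that of Eif2b5, which did not pass the test. Annotated starts may differ from those used in these cells, and Eif3e and Eif3h were not analysed here. In the whole entry of 300 bases, on either strand, the E-box letters CACGTG were found in 7 of the 38 members (2 lower, 1 higher). They were found in 7.24% of the 27025 genes with an entry. The letters CCGGAAG, a core bound by ETS factors, were found in 12 of the 38 (1 lower, 3 higher) and in 9.14% of the 27025. These are matches of letters and not binding sites. The 27025 genes were not limited to those tested here, while the members all were, so the shares are not matched.

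Genes of the cap-binding complex and its helpers changed in both directions, with 3 of 10 higher and 3 lower, against 22.4% and 22.5% of all genes, and a median log2 fold change of 0.01. Eif4e, the cap-binding subunit itself, had 177, 174 and 192 CPM in HFCS-labelled libraries and 218, 267 and 264 CPM in control-labelled ones. Every HFCS-labelled library was below every control-labelled one (-0.46 ± 0.09, adjusted p = 0.0014). Eif4e2, for a relative that binds the cap without eIF4G and is known as a translational repressor, had 113, 108 and 97.6 CPM in HFCS-labelled libraries against 97.2, 80.5 and 82.0 CPM in control-labelled ones (0.29 ± 0.09, adjusted p = 0.0215). The groups of Eif4e2 almost touched, and its call was lost without HFCS replicate 1 or 2, or control replicate 2 or 3 (adjusted p = 0.0676 to 0.0805). The third cap-binding gene, Eif4e3, was at 28.3 ± 1.33 CPM in HFCS-labelled libraries and 28.7 ± 0.271 CPM in control-labelled ones and did not pass (-0.02 ± 0.09).

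The scaffold genes differed among themselves. Eif4g1, the main scaffold, had 616, 599 and 565 CPM in HFCS-labelled libraries against 722, 645 and 637 CPM in control-labelled ones (-0.17 ± 0.07, adjusted p = 0.0715), with groups that did not overlap, and passed with upper-quartile scaling (0.0398) and the replicate block (0.0386). Eif4g2 (ENSMUSG00000005610, chromosome 7, 111067750 to 111083030, minus strand), also called DAP5, codes for a scaffold that lacks the eIF4E-binding part and serves cap-independent and other non-canonical initiation. It had 1184, 1139 and 1349 CPM in HFCS-labelled libraries and 718, 899.8 and 877 CPM in control-labelled ones, which is 393 ± 49.4 TPM in HFCS-labelled libraries and 259.6 ± 39.2 TPM in control-labelled ones per length. The groups did not overlap. The difference was 0.56 ± 0.10 on the log2 scale, 1.47-fold (adjusted p = 8.7e-04), and it passed in every alternative. Eif4g3 did not pass (0.09 ± 0.06, adjusted p = 0.246) except with library size alone (0.0402).

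Among the helicase genes, Eif4a1 had 728, 739 and 686 CPM in HFCS-labelled libraries and 719, 685 and 696 CPM in control-labelled ones, with groups that overlapped (0.04 ± 0.06, adjusted p = 0.666). Reads of Eif4a1 could be shared with the processed pseudogene Eif4a-ps4, which had 4352 counts in HFCS-labelled libraries and 4324 in control-labelled ones. Eif4a2, its close relative, had 232, 233 and 244 CPM in HFCS-labelled libraries against 257, 304 and 270.0 CPM in control-labelled ones (-0.23 ± 0.07, adjusted p = 0.0268). That call was lost without any 1 library other than control replicate 1 (adjusted p = 0.0536 to 0.122), with library size alone (0.118) and without a filter on low counts (0.0574). Exons of Eif4a2 also overlap those of Rfc4 on the other strand, which had 2566 counts in HFCS-labelled libraries and 1926 in control-labelled ones. The cofactors of the helicase went opposite ways. Eif4b had 833, 868 and 770.5 CPM in HFCS-labelled libraries and 1133, 990.0 and 1053 CPM in control-labelled ones (-0.36 ± 0.07, adjusted p = 0.0023), and was lower in every alternative. Eif4h had 496, 459 and 422 CPM in HFCS-labelled libraries against 431, 354 and 352 CPM in control-labelled ones (0.28 ± 0.09, adjusted p = 0.0315), with control replicate 1 above the lowest HFCS-labelled library. The call of Eif4h was lost without HFCS replicate 1 or 2, or control replicate 2 or 3 (adjusted p = 0.0757 to 0.117), and with upper-quartile scaling (0.0529). When any 1 of those 4 libraries was left out, the count of higher genes in this group was 1, namely Eif4g2.

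The median log2 fold change of the 4 inhibitors of eIF4E was 0.24. Only Eif4ebp2 passed, where 22.4% of all genes were called higher. It had 229, 221 and 212 CPM in HFCS-labelled libraries against 174, 175 and 164 CPM in control-labelled ones, with wide separation (0.37 ± 0.06, 1.29-fold, adjusted p = 9.8e-04). Eif4ebp1, the best-studied target of mTOR among them, varied widely between libraries: it had 144, 147 and 107 CPM in HFCS-labelled libraries and 201, 109.7 and 120.5 CPM in control-labelled ones. Control replicate 1 was the highest and the groups overlapped (-0.12 ± 0.20, adjusted p = 0.665). Without control replicate 1 the estimate was 0.21 (adjusted p = 0.120), and without HFCS replicate 3 it was 0.03. Eif4ebp3 had few reads, with 18 to 35 counts per HFCS-labelled and 15 to 24 per control-labelled library. Eif4enif1, for the protein that carries eIF4E into the nucleus, was at 0.12 ± 0.07 (adjusted p = 0.184) and passed with library size alone (0.0354).

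**Figure D4:**
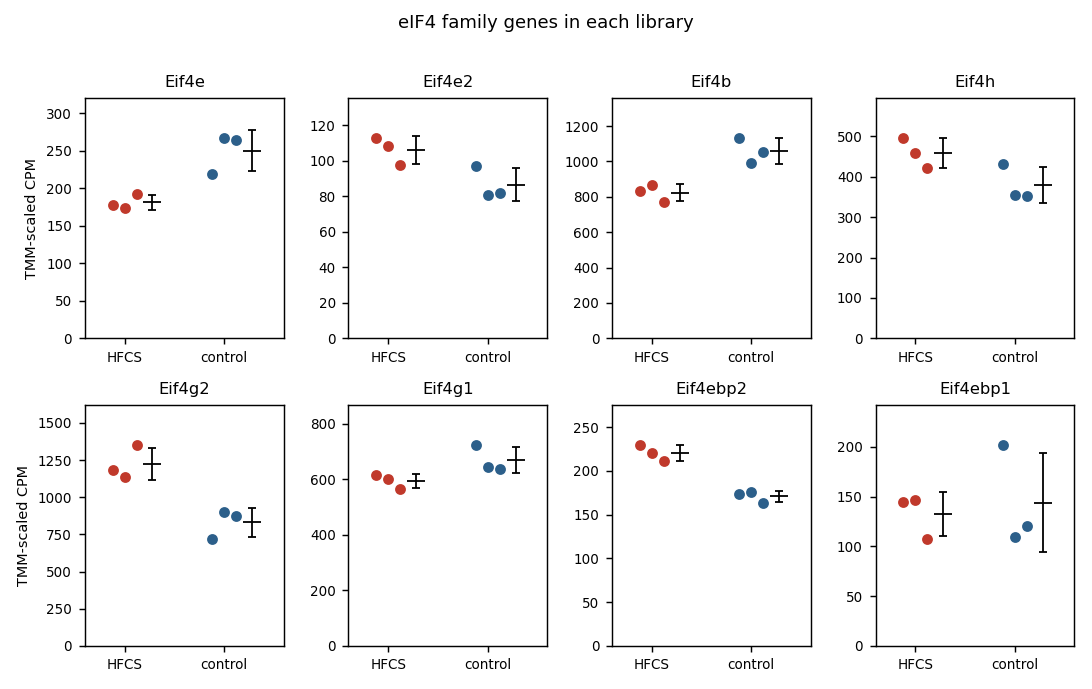
TMM-scaled CPM of 8 genes of the eIF4 family in each library (points), with mean ± SD (bars, n = 3 each), HFCS-labelled in red on the left and control-labelled in blue on the right, on axes that start at 0. Eif4e and Eif4b are lower and Eif4g2 and Eif4ebp2 higher in every HFCS-labelled library, while Eif4ebp1 overlaps, with control replicate 1 at 201 CPM.

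Ratios between related genes within a library do not depend on how libraries are scaled. There were 10 pairs compared. With 3 libraries against 3 a two-sided exact permutation test cannot give a p below 0.1. Of the pairs, 6 reached that limit, with groups that did not overlap and a p of 0.167 after adjustment over the 10. Among single genes 54.5% had groups that did not overlap, and no such share was computed for other pairs. The log2 ratio of Eif4e2 to Eif4e counts was -0.77 ± 0.18 in HFCS-labelled libraries and -1.53 ± 0.31 in control-labelled ones (mean ± SD, n = 3 each, exact permutation p = 0.1), a difference of 0.75. That of Eif4g2 to Eif4g1 was 1.04 ± 0.19 in HFCS-labelled libraries and 0.31 ± 0.28 in control-labelled ones (difference 0.73), and that of Eif4g3 to Eif4g1 -1.37 ± 0.02 in HFCS-labelled libraries and -1.63 ± 0.06 in control-labelled ones (difference 0.26). That of Eif1b to Eif1 was -3.84 ± 0.11 in HFCS-labelled libraries and -3.25 ± 0.26 in control-labelled ones (difference -0.59). The pairs Eif4e3 to Eif4e (difference 0.43) and Eif4a2 to Eif4a1 (-0.26) were the others at the limit. The differences of these 6 pairs restate the changes of the single genes given above. Eif4e and Eif4g1 each serve as denominator in more than 1 of them, so the pairs are not independent. Among the single genes, the call of Eif4e2 was lost without any 1 of 4 libraries. That of Eif4a2 was lost without any 1 library other than control replicate 1. The groups overlapped for Eif4ebp2 to Eif4ebp1 (exact permutation p = 0.3), Eif4ebp1 to Eif4e (0.4), Eif2s3y to Eif2s3x (0.2) and Eif1a to Eif1ax (0.9).

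**Figure D5:**
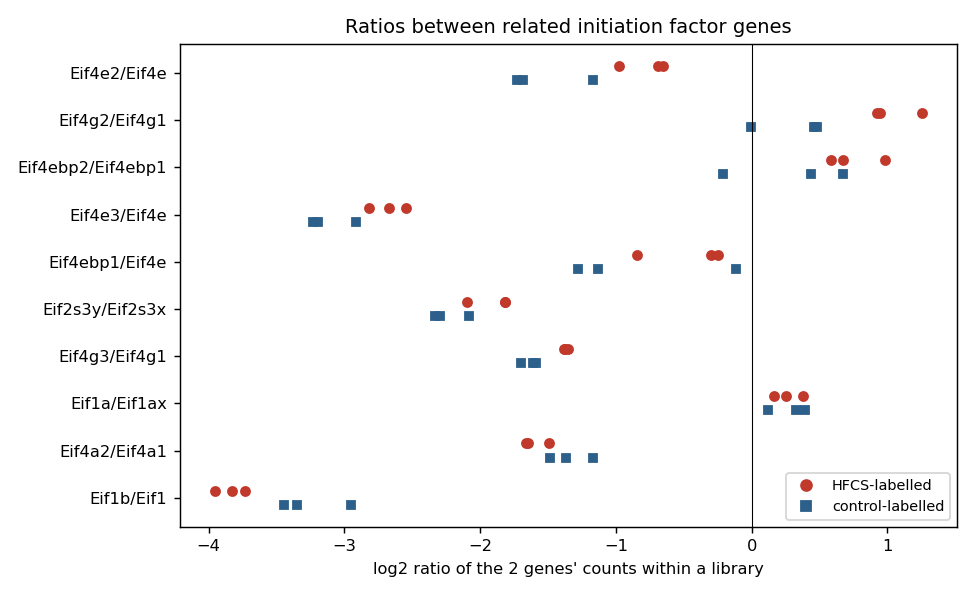
Log2 ratio of the counts of 2 related genes within each library for the 10 pairs (HFCS-labelled, red circles; control-labelled, blue squares, drawn just below), ordered by the difference between the groups. Eif4e2/Eif4e shows the widest difference to the right (0.75) and Eif1b/Eif1 the widest to the left (-0.59), while Eif1a/Eif1ax overlaps.

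Among genes named as initiation factors but placed outside the complexes, Eif6 rose. Its protein binds the large ribosomal subunit, is needed to make it, and keeps it from joining the small one too early. Eif6 (ENSMUSG00000027613, chromosome 2, 155819832 to 155826925, minus strand) had 153, 145 and 119.5 CPM in HFCS-labelled libraries and 94.5, 74.9 and 84.6 CPM in control-labelled ones. The lowest HFCS-labelled library exceeded the highest control-labelled one, with a log2 fold change of 0.71 ± 0.11, 1.64-fold (adjusted p = 3.8e-04), that passed in every alternative. Eif5a, the hypusine-bearing factor that now counts chiefly as an elongation factor, had the highest TPM of the 49. It was at 983 ± 33.4 TPM in HFCS-labelled libraries and 1066 ± 140.0 TPM in control-labelled ones. Its CPM were 728, 759 and 668 in HFCS-labelled libraries against 960.2, 713 and 738 in control-labelled ones, with control replicate 1 the highest, and it did not pass (-0.16 ± 0.11, adjusted p = 0.242). Eif4a3, the helicase of the exon junction complex, was at 0.14 ± 0.06 (adjusted p = 0.0892) with groups that did not overlap, and passed without control replicate 1 (0.17, adjusted p = 0.0238) and with library size alone (0.0144). Eif1ad was at -0.02 ± 0.10.

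Regulators of these factors were read from lists of known roles. Of 11 genes for eIF2 kinases and phosphatase subunits, 2 were higher, 1 was lower and 8 did not pass, the 4 Eif2ak kinase genes among them. The called share was 27.3%, against 44.9% of all tested genes, and the median log2 fold change was 0.15. Without control replicate 1 the counts were 4 higher and 3 lower, and with library size alone 6 were higher. The replicate block gave 4 higher and upper-quartile scaling 2 lower. Ppp1r15a, the inducible subunit also known as GADD34 that directs protein phosphatase 1 to eIF2 alpha, had 86.2, 70.6 and 75.6 CPM in HFCS-labelled libraries and 27.8, 20.1 and 25.3 CPM in control-labelled ones. That is 1.66 ± 0.12 on the log2 scale (3.17-fold, adjusted p = 3.8e-06), a larger change than that of any initiation factor gene. Its constitutive counterpart Ppp1r15b was at 0.32 ± 0.06 (adjusted p = 0.0014), and Impact, which restrains the kinase GCN2, at -0.44 ± 0.10 (adjusted p = 0.0045). Of 15 genes of mTOR and MNK signalling, 2 were higher and 4 lower (median -0.10), a called share of 40.0% against 44.9% of all tested genes. With library size alone 4 were higher. The genes of the kinases that phosphorylate eIF4E parted, with Mknk1 at 127 ± 5.45 CPM in HFCS-labelled libraries and 62.8 ± 4.47 CPM in control-labelled ones (1.02 ± 0.08, adjusted p = 3.9e-06) and Mknk2 at 102 ± 7.99 CPM in HFCS-labelled libraries and 141 ± 19.9 CPM in control-labelled ones (-0.47 ± 0.10, adjusted p = 0.0037). Pdcd4, for an inhibitor of eIF4A, was lower at 15.1 ± 2.07 CPM in HFCS-labelled libraries and 27.8 ± 1.15 CPM in control-labelled ones (-0.88 ± 0.12, adjusted p = 2.1e-04). Akt1s1 (0.54) was higher, and the S6 kinase gene Rps6kb1 (-0.31) and the mTOR inhibitor gene Deptor (-0.42) were lower.

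Of 16 other cofactors of initiation, 6 were higher and 4 lower (median log2 fold change 0.10), a called share of 62.5% against 44.9% of all tested genes. Without control replicate 1 the lower count was 7. Pabpc1, the poly(A)-binding protein that contacts eIF4G, had 1523, 1583 and 1647 CPM in HFCS-labelled libraries against 2503, 2900.0 and 2730.0 CPM in control-labelled ones (-0.78 ± 0.07, adjusted p = 1.4e-05). Ddx3x, a helicase that helps structured mRNAs to be scanned, had 237, 216 and 261 CPM in HFCS-labelled libraries against 106, 129.7 and 127 CPM in control-labelled ones (0.98 ± 0.09, adjusted p = 2.2e-05). Bzw2, for a protein known to compete with eIF5, was lower (-0.82 ± 0.07, adjusted p = 1.4e-05), and so were the recycling gene Abce1 (-0.29) and Mcts2 (-1.23), which had 2.20 ± 0.753 CPM in HFCS-labelled libraries and 5.22 ± 0.620 CPM in control-labelled ones. The others called higher were Mif4gd (0.67), Denr (0.41), Paip1 (0.33), Cyfip1 (0.29) and Paip2b (0.26). Of 9 tested elongation and termination genes, 5 were lower and 1 was higher (median -0.22), where 22.5% of all genes were lower and 22.4% higher. The lower count was 1 with library size alone, 3 with no filter on low counts, 1 without HFCS replicate 1 or 2, 3 without HFCS replicate 3 and 2 without control replicate 2. The higher count was 0 without HFCS replicate 1 or 2 or control replicate 2. Eef1a1, the tRNA-carrying elongation factor, had 12461 ± 324 CPM in HFCS-labelled libraries and 21091 ± 619 CPM in control-labelled ones (-0.76 ± 0.06, adjusted p = 3.3e-06). Etf1 (-0.28), Eef1g (-0.23), Gspt1 (-0.22) and Eef1d (-0.22) were lower, while Eef2k (0.43), whose kinase slows elongation, was higher. Calls of Abce1, Paip2b, Eef1d, Eef1g, Eef2k, Etf1 and Gspt1 were each lost when 1 of 3 to 5 libraries was left out, with adjusted p-values of 0.0580 to 0.162.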

How the data were processed

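RNA-seq libraries of RAW264.7 cells were analysed as 3 HFCS-labelled and 3 control-labelled libraries. The authors deposited 1 table of raw counts per gene. Per the submitters' processing notes, CASAVA, HISAT2 2.0.5, featureCounts 1.5.0-p3 and mm10 were used. The sources used here do not give their order, the annotation release, the strand setting or any filter. Reads shared by overlapping genes or near copies can therefore be misassigned, and 20 of the members overlap another listed gene. Besides Eif2a, Eif2d and Eif4a2, exons of Eif3j1, Eif5b and Eif2b4 overlap those of Spg11, Rev1 and Snx17 on the other strand. Spg11 had 3715 counts in HFCS-labelled libraries and 3879 in control-labelled ones. For Rev1 the counts were 3405 and 3639, and for Snx17 3460 and 2996, in the same order.

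Genes were tested with edgeR 4.0.16 in R 4.3.3 (filterByExpr with a minimum count of 10, TMM scaling, quasi-likelihood test without covariates, HFCS over control, Benjamini-Hochberg adjustment over 14360 genes, threshold 0.05). CPM are TMM-scaled. Scripts were tested on simulated data. Members and lists were chosen with earlier results of these data known. Every member could be named, with values in every library for the 12 largest called changes, the highest CPM in each role and a few central factors; of the related lists, only genes that passed were named. Biotypes and exon lengths came from GENCODE M21, in which 51 genes met the rule. Of these, 49 had a row, and Eif4e1b and Eif5a2 were not analysed here. Alternatives were other scalings, other filters, DESeq2 1.42.0, limma-voom (limma 3.58.1), a replicate block and leaving out each library. Pair ratios were compared by exact permutation tests.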

Additional observations from a re-analysis of the deposited data

How the results depend on the processing

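Of the 22 called members, 14 passed in all 14 alternatives, 5 higher and 9 lower, and none of the 22 changed direction in any of them; 13 of the other members passed in at least 1. Scaling by library size alone gave 16 higher members (6 scanning and joining, 2 eIF2, 2 eIF4E inhibitors, 2 outside the complexes, no lower eIF2B gene). Over all genes 60.2% of its calls were higher, where the reported fit split them evenly. Upper-quartile scaling and DESeq2 gave 0 higher eIF2 genes. No filter on low counts gave 6 higher scanning genes and 1 higher eIF3 gene. Leaving out 1 library gave 5 to 12 higher and 9 to 16 lower members, 2 to 4 higher scanning, 0 to 1 higher eIF2, 0 to 1 lower eIF2B, 0 to 1 higher and 5 to 9 lower eIF3, 1 to 3 higher eIF4F, and 1 to 2 higher outside the complexes. Over all genes it gave 5115 to 7550 calls. Deviations from the group means had an r of 0.167, -0.064 and 0.191 between same-numbered libraries and of -0.3 to 0.163 between differently numbered ones. With 3 libraries a group these values cannot show whether the labels' replicate numbers pair the libraries. The replicate block gave 13 higher and 16 lower members, with 6 higher scanning genes and 1 higher eIF3 gene, and 7152 calls over all genes. Only uncalled members reversed: Eif2b2 (0.0334 with library size alone, -0.110 to 0.0219 with 1 library left out), Eif3a (0.0132 with library size alone), Eif3j2 (-0.150 to 0.00455 with 1 left out), Eif4e3 (0.0567 with library size alone, 0.0115 with no filter, -0.0509 to 0.0171 with 1 left out), Eif4ebp1 (-0.28 to 0.21 with 1 left out) and Eif1ad (0.0587 with library size alone, 0.0136 with no filter, -0.0828 to 0.0680 with 1 left out). The alternatives for the related genes were added after seeing the data. The cause was not tested. A floor of 3 counts is 0.196 to 0.229 CPM, below every member in every library, and 3 libraries a group limit small differences.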

Other observations

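Rows of Eif pseudogenes were left out of the members. Apart from Eif4a-ps4, they had few reads. Eif3s6-ps2, a pseudogene of Eif3e, had 27 counts in all HFCS-labelled libraries together and 41 in the control-labelled ones.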
